A study of Mus musculus with 2 samples.

Results

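The 9 loci described here are those of Pou5f1, Sox2, Nanog, Sall4, Esrrb, Lin28a, Tfcp2l1, Prdm14 and Tbx3, genes of the transcriptional network that keeps embryonic stem cells pluripotent. They were chosen by name, each as a fixed window around the gene in the mouse genome build mm9, and a peak was counted for a locus when its midpoint fell in the window. None of the 9 windows, 570 kb in all, held a Klf4 peak, out of 7313 peaks in the deposited list. As background, a mean of 12.7% of all chromosome windows of these lengths held one. The list comes from chromatin immunoprecipitation with an anti-Klf4 antibody followed by sequencing (ChIP-seq) of mesenteric arcades, the small vessels that supply the gut, from chow-fed C57BL/6 mice. Of the 2 libraries, 1 came from eYFP+/+ Klf4WT/WT mice and 1 from eYFP+/+ Klf4delta/delta mice. Both carry eYFP, a yellow fluorescent protein, and the labels' protocol puts SMC (smooth muscle cell) before both genotypes. The sources used here do not say what drives the deletion, how old the mice were or how many entered a library. That the tissue is adult is therefore not stated either. Chromatin came from the stromal vascular fraction, which the labels call a mix that includes smooth muscle cells, epithelial cells and macrophages. The single peak list carries no genotype and no expression values. The genotypes were therefore not compared, and neither the cell types nor the transcription of the 9 genes could be checked.

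Pluripotency rests on a small set of factors that bind their own and each other's genes. Pou5f1 (Oct4, a POU-domain factor), Sox2 (an HMG-box factor) and Nanog (a homeodomain factor) form its core. Esrrb (an orphan nuclear receptor), Tfcp2l1 (a CP2-family factor), Prdm14 (a PR-domain regulator), Tbx3 (a T-box factor) and Sall4 (a zinc-finger factor) support the core, and Lin28a is an RNA-binding protein that blocks maturation of let-7 microRNAs. Klf4 is itself part of this network in embryonic stem cells, where it is known to bind near many of these genes, and it is one of the classical reprogramming factors. In differentiated tissue most of these genes are normally silent, whereas Klf4 is also used in epithelial, vascular and myeloid cells. The comparison made here asks whether Klf4 peaks of the mesenteric preparation lie at the genes of this network.

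Klf4 binds G-rich DNA of the kind found in GC and CACCC boxes, and such letters are frequent in promoters. Promoters of 6 of the 9 genes were matched in the RefSeq promoter table (build GRCm38.p6), each 300 bases long, from 250 before to 50 after an annotated start. Sall4, Prdm14 and Tbx3 had no entry. The 4 promoters below are shown because they belong to the core factors and to Tfcp2l1, and hold letters of the searched motif although the windows of these genes held no peak. They are written 5′ to 3′ on the strand of the gene, and capitals mark GGGNGNGG (N being any base) on either strand, with overlapping matches joined. Their positions in GRCm38.p6, all on the plus strand, are chr17:35505782-35506081 for Pou5f1, chr3:34649745-34650044 for Sox2, chr6:122707239-122707538 for Nanog and chr1:118627695-118627994 for Tfcp2l1. These positions cannot be set against the mm9 positions of windows and peaks, and where the promoters fall within the windows was not determined.
Pou5f1: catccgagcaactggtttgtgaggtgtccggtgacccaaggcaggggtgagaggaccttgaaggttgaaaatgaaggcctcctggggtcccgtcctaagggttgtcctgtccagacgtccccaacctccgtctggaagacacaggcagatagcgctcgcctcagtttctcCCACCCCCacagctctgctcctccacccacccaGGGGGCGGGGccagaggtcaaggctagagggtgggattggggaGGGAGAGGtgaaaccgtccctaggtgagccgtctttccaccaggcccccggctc
Sox2: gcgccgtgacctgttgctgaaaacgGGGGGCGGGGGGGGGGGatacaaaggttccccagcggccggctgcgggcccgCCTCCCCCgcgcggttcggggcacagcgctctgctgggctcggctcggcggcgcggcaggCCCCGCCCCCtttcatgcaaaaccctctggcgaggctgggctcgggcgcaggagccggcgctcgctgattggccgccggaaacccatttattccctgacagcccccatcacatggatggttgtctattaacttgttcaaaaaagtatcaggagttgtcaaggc
Nanog: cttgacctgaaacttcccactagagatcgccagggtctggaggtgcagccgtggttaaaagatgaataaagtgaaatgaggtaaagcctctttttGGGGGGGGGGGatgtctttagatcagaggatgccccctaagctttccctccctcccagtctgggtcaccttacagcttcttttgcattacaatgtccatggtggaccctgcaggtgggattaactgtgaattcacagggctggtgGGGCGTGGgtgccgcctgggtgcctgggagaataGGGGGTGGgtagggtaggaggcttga
Tfcp2l1: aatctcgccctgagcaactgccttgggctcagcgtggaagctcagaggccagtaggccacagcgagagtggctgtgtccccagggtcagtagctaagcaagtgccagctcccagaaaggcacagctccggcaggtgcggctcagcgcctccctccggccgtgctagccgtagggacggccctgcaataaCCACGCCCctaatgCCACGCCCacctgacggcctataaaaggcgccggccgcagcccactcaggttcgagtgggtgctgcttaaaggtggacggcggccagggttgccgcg

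The motif occurred in a promoter of each of the 6 matched genes, against 51.9% of the 27025 genes in the table. Per promoter it occurred in 8 of the 9 entries of these genes, against 49.5% of 32851 promoters. The entries with a match held 54.3 to 66.3% G and C, and the entry without one held 45.7%. The shares over all genes and promoters were matched neither for G and C content nor for the number of entries per gene. The Tfcp2l1 promoter had 2 matches, both GGGCGTGG on the minus strand. The Nanog promoter shown had 6 matches, but 4 of them lay in 1 run of G, leaving GGGCGTGG and GGGGGTGG. A second Nanog entry, which overlaps the first, had 7 matches, 4 of them in the same run of G, with GGGGGAGG in addition. The Sox2 promoter had 9 matches, 4 of them in a run of G, and the first Pou5f1 promoter had 4, while the second Pou5f1 entry had none. Lin28a had 4 matches, all made of G with single A letters, and the 2 Esrrb entries had 8 and 1 matches, 6 of them in a run of G. The longer form GGGNGNGGC was found for 4 of the 6 genes (Pou5f1, Sox2, Esrrb and Tfcp2l1), against 28.2% of genes, and CACCC for 5 of 6 (not Sox2), against 59.8%. GGGNGNGGC lies within the shorter form, and CACCC, read on the opposite strand, can overlap it. A match says only that these letters are present.

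The core factors held no peak in their windows and differed widely in what lay around them. For Pou5f1 (chromosome 17, 35630000 to 35660000 in mm9) the nearest peak lay 53.2 kb before the window, was 867 bp wide and had a score of 103.06. The score is the value given by the authors' peak caller, with a median of 112.03 over the 7298 peaks placed on chromosomes and a lowest value of 60.01. A second peak, with a score of 140.43, lay 67.6 kb before the window. On the other side the first peak, 1508 bp wide with a score of 119.91, began 299 kb away. Pou5f1 thus lay in a peak-free stretch of 382 kb inside an otherwise peak-rich region: 28 peaks lay within 500 kb of the window, 14 on each side. Of all 30 kb windows, 0.0541% had as many peaks or more within that reach. Neighbouring windows share most peaks within 500 kb, so they are not independent, and this share can include windows around Pou5f1 itself. Stretches at least as long as 382 kb made up 78.3% of the span between the first and last peaks of the chromosomes. In RefSeq gene order Pou5f1 follows H2-Q7 and H2-Q10, class I genes of the major histocompatibility complex, and precedes Tcf19 and Cchcr1.

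Nanog (chromosome 6, 122640000 to 122680000) had the closest peak of the 9 loci, 11.6 kb after its window. This peak, at 122691596 to 122692733, was 1138 bp wide and scored 79.98, a value above that of 21.8% of placed peaks. Further peaks lay 80.8 kb and 89.9 kb after the window, with scores of 71.91 and 212.74. Before the window the nearest peak was 350 kb away, 475 bp wide, with a score of 76.27. In gene order Nanog lies between Dppa3, itself a gene of pluripotent and germ cells, and Slc2a3, a glucose transporter gene. No peak could be assigned to any of these genes, since an annotation of mm9 was not used here.

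Sox2 (chromosome 3, 34530000 to 34570000), which lies inside the long noncoding gene Sox2ot, was far from any peak. The nearest lay 830 kb before the window, with a width of 924 bp and a score of 79.98. After the window the first peak lay 1083 kb away, and it was strong for this list, with a score of 265.46, above 94.2% of placed peaks. The whole peak-free stretch around Sox2 measured 1.95 Mb.

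**Figure D1:**
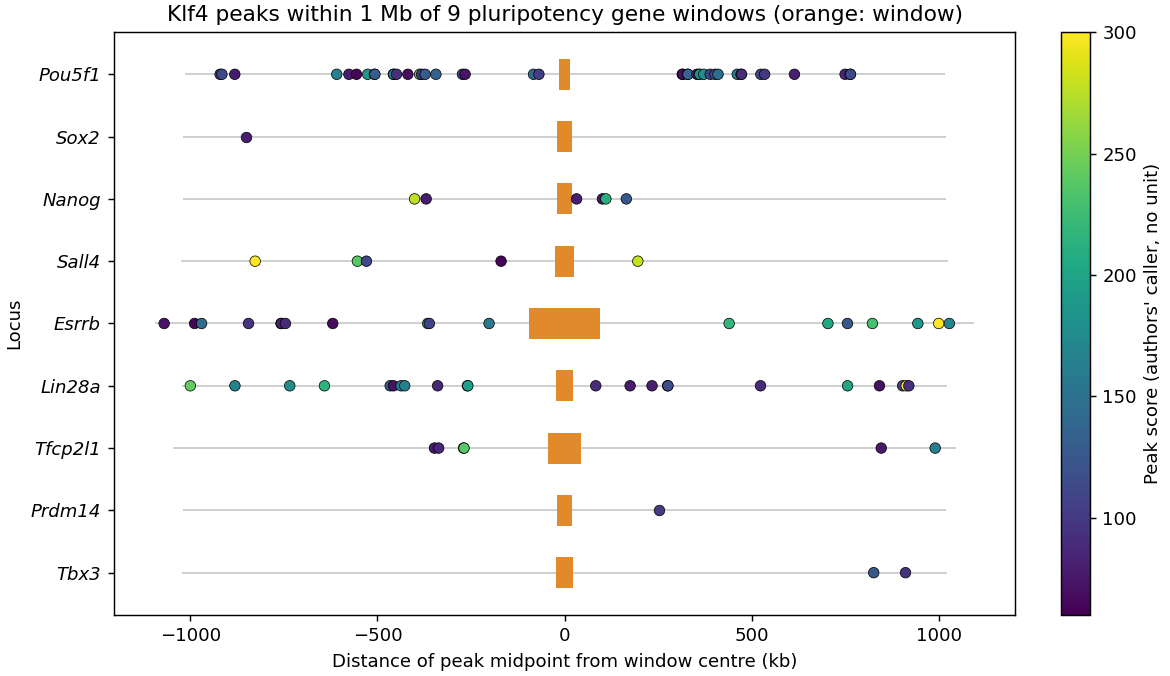
Peaks within 1 Mb of the edges of each window, 1 locus per line. The x axis is the distance of a peak's midpoint from the window's centre in kb, orange bars are the windows to scale, and the colour of a point is its score, drawn from 60 to 300 with higher scores in the last colour. No point lies in an orange bar, and points are dense around Pou5f1 and nearly missing around Sox2, Prdm14 and Tbx3.

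The supporting factors likewise had no peak. Esrrb (chromosome 12, 87690000 to 87880000) had the longest window, 190 kb, and its nearest peaks lay 106 kb before it (1189 bp, score 155.12) and 343 kb after it (2327 bp, score 217.86). Both scored above the median of the list. Tfcp2l1 (chromosome 1, 120510000 to 120600000) had a pair of peaks 223 and 224 kb before its window, with scores of 237.94 and 89.55, and none for 800 kb after it. In gene order Clasp1 precedes Tfcp2l1, and Gli2, a Hedgehog pathway factor, follows it.

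Prdm14 (chromosome 1, 13090000 to 13130000) had 1 peak within 1 Mb, 232 kb after its window, 807 bp wide and with a score of 101.97. The next peak on the other side was 2105 kb away. Tbx3 (chromosome 5, 120105000 to 120150000), next to Tbx5 in gene order, had no peak within 500 kb. Its nearest peak, 946 bp wide with a score of 125.23, lay 803 kb after the window, and the stretch without peaks measured 2.26 Mb, against 2.38 Mb for Prdm14. Stretches at least as long as that of Prdm14 made up 32.3% of the span between the first and last peaks of the chromosomes, those at least as long as that of Tbx3 33.8%, and those at least as long as that of Sox2 38.1%. Positions in stretches of this length were thus common in the list.

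Sall4 (chromosome 2, 168560000 to 168610000) had 1 peak on each side within 500 kb. The peak 144 kb before the window was narrow and close to the lowest score of the list, at 568 bp and 62.90. The peak 170 kb after it was 1480 bp wide and scored 279.37, above 95.2% of placed peaks. Lin28a (chromosome 4, 133545000 to 133590000) had 12 peaks within 500 kb, a number reached by 4.26% of 45 kb windows, and its nearest peak lay 60.4 kb after the window (905 bp, score 89.07). Lin28a lies between Dhdds and Crybg2 in gene order.

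The empty windows have to be read against how sparse the list is. At 2.86 peaks per Mb of chromosome span, 570 kb would hold 1.63 peaks. A count of 0 allows up to 3 peaks, or 5.26 per Mb, which is above the rate of the list, so a lower density at these loci was not detectable. When the chromosomes were tiled from end to end, 7.20% of 30 kb windows held a peak (the length used for Pou5f1). The share was 9.29% for 40 kb (Sox2, Nanog and Prdm14), 10.2% for 45 kb (Lin28a and Tbx3) and 11.2% for 50 kb (Sall4). It was 17.6% for the 90 kb of Tfcp2l1 and 29.6% for the 190 kb of Esrrb. These shares add up to 1.14 loci with a peak among 9, against 0 found. The number of loci with a peak thus differed little from the background count. With 9 windows, a lower share could not be told from an equal one. No test was made, because the list is 1 set with no replicates. The tiled windows include sequence without genes, and windows centred on other genes were not used here.

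**Figure D2:**
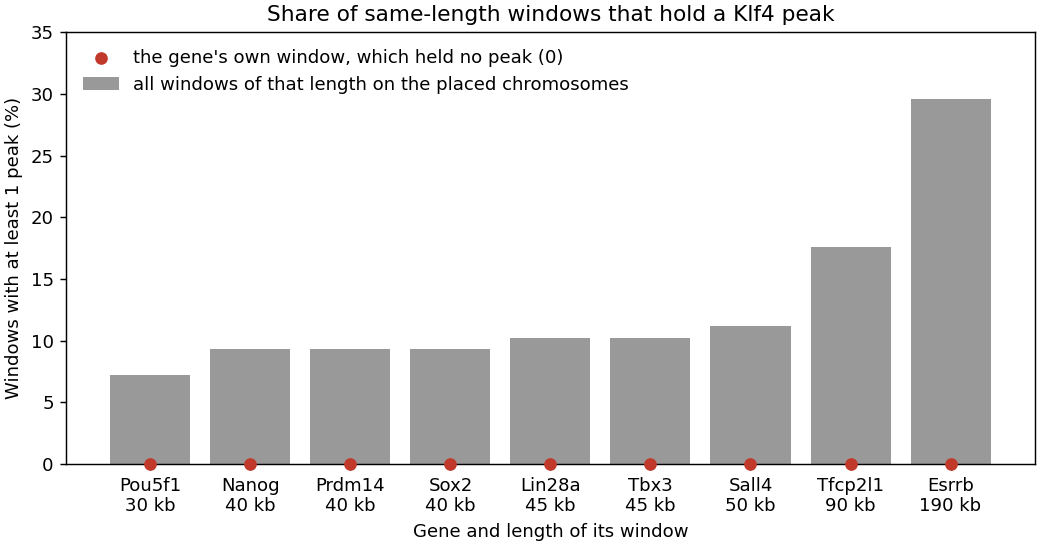
Bars give, for each gene, the percentage of all windows of the length of its own window that held at least 1 peak, and red points mark the gene's own window, which held none. Bars rise from 7.20% for the 30 kb of Pou5f1 to 29.6% for the 190 kb of Esrrb, and all 9 points are at 0.

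Distances to the nearest peak were not uniformly long or short. The median distance for all 40 kb windows was 236 kb, with quartiles of 52.3 and 700 kb. Nanog, at 11.6 kb, was nearer than the lower quartile, and 86.2% of 40 kb windows lay as far from a peak or farther. Pou5f1 and Lin28a, at 53.2 and 60.4 kb, lay near the lower quartile of windows of their lengths (57.9 and 50.3 kb). Esrrb, Sall4, Tfcp2l1 and Prdm14, between 106 and 232 kb, lay within the quartiles. For the 190 kb of Esrrb the lower quartile was 0, so no window could lie under it. Sox2 and Tbx3, at 830 and 803 kb, lay beyond the upper quartile, and 21.3% and 21.9% of windows of their lengths lay as far from a peak or farther.

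**Figure D3:**
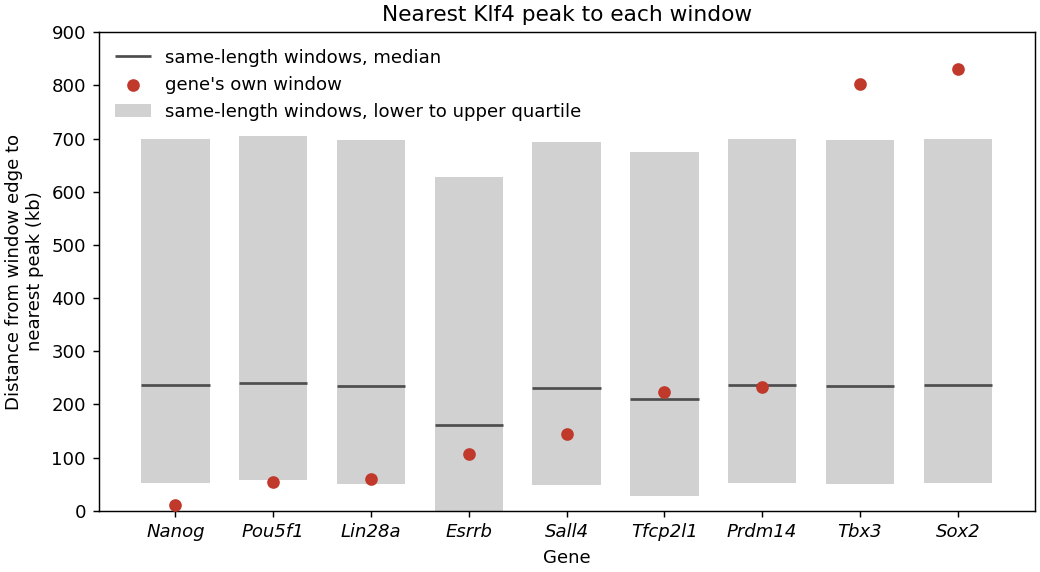
Distance in kb from the edge of each gene's window to the nearest peak (red points), genes ordered by distance. Grey bars run from the lower to the upper quartile of that distance over all windows of the same length, and dark lines are their medians. Windows that overlapped a peak count as 0 in these bars. Nanog and, by a small margin, Pou5f1 lie under their bars, and Sox2 and Tbx3 lie above theirs.

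The peaks around the loci had scores close to those of the whole list. Within 500 kb of the 9 windows lay 57 peaks, with a median score of 109.14, a range of 60.73 to 279.37 and a median width of 892 bp, against 112.03 and 913 bp for all placed peaks. Median scores per locus ran from 87.28 (Lin28a and Tfcp2l1) to 171.13 (Sall4), with 117.00 at Pou5f1. Of the 57, 28 scored above the median of the list. They came from 7 of the 9 loci, with 28 from Pou5f1, 12 from Lin28a, 6 from Nanog, 4 each from Esrrb and Tfcp2l1, 2 from Sall4 and 1 from Prdm14, with none from Sox2 or Tbx3. The median over all windows of each length was 2 peaks. Depending on the length, 29.6% to 33.1% of all windows had no peak within 500 kb, so 7 of 9 loci with one lay near the background.

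**Figure D4:**
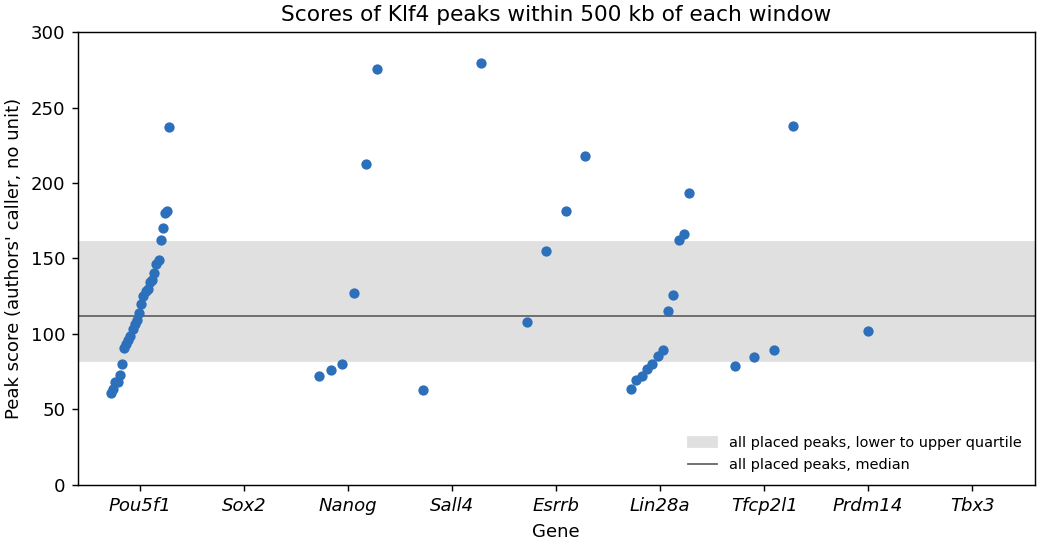
Score of each peak within 500 kb of the windows (points, 1 column per gene, ordered by score within a column). The grey band runs from the lower to the upper quartile of all placed peaks (82.30 to 161.14), with the median as a line at 112.03. Points of Pou5f1, Lin28a, Nanog and Tfcp2l1 lie below, within and above the band, and the columns of Sox2 and Tbx3 are empty.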

How the data were processed

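The data used are 1 peak list for 2 Klf4 ChIP-seq libraries, 1 per genotype. Each peak has a position and a score that the authors deposited as their peak caller wrote it. Peak names begin with MACS, per the file, and the submitters' processing notes name Bowtie, SAMtools and the build mm9. Not given in the sources used here are versions, threshold, read depth, the control library and any pooling. Depth is thus unknown, and the dependence of peaks on Klf4 was not tested.

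Starts were moved by 1 base to be 1-based. Windows came from the selection rule and were not checked against an annotation of mm9. All 9 genes, all peaks in their windows and the nearest peaks outside were to be named. Members and lists were chosen with earlier results of these data known. Same-length windows were laid end to end between the outermost peaks of each of 20 chromosomes. Limits of a count of 0 use 3 counts and cover counting error only. The 15 unplaced peaks were left out. Gene order and promoters came from RefSeq (GRCm38.p6). Motifs were searched on both strands. Tiling, merging and motif search were tested on simulated data. The tools were matplotlib 3.10.9, scipy 1.17.1, pandas 2.3.3 and numpy 2.4.6 under Python 3.11.15. Alternatives were overlap instead of midpoints, merging of peaks under 1 kb apart, the upper 50% of scores, wider windows, leaving out the longest window, other tilings and other motifs.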

Additional observations from a re-analysis of the deposited data

How the results depend on the processing

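The count of 0 peaks and 0 loci stayed at 0 when any overlap counted, when peaks under 1 kb apart were merged, with the upper 50% of scores, with windows widened by 10 kb on each side and without the longest window, that of Esrrb. Widening by 50 kb on each side gave 1 peak at 1 locus (Nanog), a rate 0.238 times that of the list. The rate of the list would give 4.21 peaks there, and a rate that rests on 1 peak is very uncertain. Widening by 100 and 500 kb, added after the data were seen, gave 6 peaks at 3 loci (0.884 times) and 57 peaks at 7 loci (2.08 times). At the rate of the list these wider windows would hold 6.79 and 27.4 peaks. Of the 57 peaks, 28 were around Pou5f1. With the same reach of 500 kb, 29.6% to 33.1% of all windows of these lengths held no peak. For 50 and 100 kb the share over all windows was not computed. Distances to the nearest peak give a rough guide: their lower quartiles ran from 47.9 to 57.9 kb for windows of 30 to 50 kb. The mean share of same-length windows with a peak, 12.7%, was 12.6% with tiles moved, 12.2% with the chromosome of each window only and 7.59% with the upper 50% of scores. The number of genes with a motif, 6, was 4 with GGGNGNGGC and 5 with CACCC. Median score and width of peaks in the windows, and their alternatives, could not be computed because the windows held none. No paired analysis was possible because each genotype had a single library and the list separates neither. Since depth is unknown, an empty window does not show that Klf4 was absent there.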
